A study of Mus musculus with 5 samples.

Results

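The p53 pathway was described through a list of 39 genes. It holds the p53 family, p53 target genes and some relatives or partners of these, such as Gadd45b, Gadd45g, Trp53inp2 and Mdm4. Members were taken from the deposited table by gene symbol, and all 39 were found among its 23337 genes. Messenger RNA came from mouse embryonic fibroblasts of strain 129Sv, immortalized with the SV40 T antigen and grown under normal conditions. The 5 libraries comprise 3 of wild type (WT) genotype and 2 of genotype SIRT3 -/- (KO), SIRT3 being a deacetylase of the mitochondrial matrix. Every library of both genotypes carries the T antigen, a viral protein that binds p53 and blocks its activity as a transcription factor, so the comparison is between cells in which p53 is already restrained. Whether replicates are separate cultures is not in the labels. The p-values therefore rest on library-to-library spread, which may be technical, and if each genotype was 1 immortalized line, differences between lines and genotypes cannot be told apart.

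The transcription factor p53 binds DNA as a tetramer after damage or oncogene stress and activates genes of cell cycle arrest, apoptosis and DNA repair. Its level is held low by the ubiquitin ligase MDM2, which p53 itself induces, in a feedback loop that MDM4 assists. In fibroblasts the best known output is p21, the product of Cdkn1a, an inhibitor of cyclin-dependent kinases that halts the cycle and, through the DREAM repressor complex, lowers cell cycle genes.

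Reads counted on the genes of the table, recovered from the normalized values, totalled between 33473103 and 41758681 per library. Values are normalized read counts, scaled by the authors to make libraries comparable, and levels of different genes are compared only as RPKM, which corrects for gene length and depth. Within each group they are listed in the order of the replicate numbers. Fitted differences are of log2(value + 1), and folds are ratios of the group means. Sirt3, the targeted gene, was at 169.7, 149.4 and 118.4 normalized read counts in the WT libraries, against 200.4 and 216.8 in the KO libraries, so it was higher where the label says knockout (limma, adjusted p = 0.00445). These totals per gene cannot show whether a deleted part is missing, and directions below are between libraries as labelled. All 8 fibroblast markers listed passed the filter on low values, of which 2 rose, 4 fell and the other two did not pass, and their summed normalized read counts overlapped, at 574334 to 588278 in WT and 561513 to 600312 in KO. The collagen genes Col1a1 and Col1a2 rose by 0.38 and 0.58 (limma, adjusted p = 1.42e-06 and 1.4e-10). Pdgfra, a receptor gene often used to mark fibroblasts, was at 20013 ± 229 (SD, n = 3) in WT and 1255 ± 98.6 (SD, n = 2) in KO. Summed endothelial markers were at 25.7 to 34.2 in WT and 66.1 to 68.95 in KO (1 of 5 genes rose). The one that rose, Kdr, went from a mean of 1.61 to 38.2. Neuronal and glial sums were at 2108 to 2186 in WT and 2514 to 2634 in KO (1 of 6 rose and 1 fell, Rbfox3 and Sox10 at 0). Blood marker sums overlapped, at 282 to 304 in WT and 272 to 301 in KO (1 of 6 rose). Muscle sums were at 0 to 1.85 in WT and 2.22 to 4.41 in KO (none of 5 tested, Myod1 at 0). In bulk RNA, fewer cells of a type and less RNA per cell cannot be told apart.

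Genes of the p53 pathway leaned towards lower levels in the libraries labelled KO. At a Benjamini-Hochberg adjusted p under 0.05 (limma, over all genes), 19 of the 39 members fell and 7 rose, 10 did not pass, and Trp63, Trp73 and Gdf15 were too low to be tested. Of the 36 members tested, 52.8% fell, 19.4% rose and 72.2% were called either way, beside 32.6%, 32.6% and 65.3% of the 13062 genes tested. Over all 39 members the falls were 48.7% and the rises 17.9%. Of the 36 members tested, 9 fell and 4 rose by at least 1.5-fold, beside 1575 (12.1%) and 1609 (12.3%) of the 13062 genes tested. Falls of this size were thus more frequent among members than among all genes. The median log2 fold change (KO over WT) was -0.158 over the 36 members tested and -0.00228 over all genes tested, while the median size without sign was 0.281 and 0.298. Members thus leaned in direction, while the median size of their differences was about that of all genes tested. Groups did not overlap for 29 of the 36 members tested, and for 75.4% of all genes tested.

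**Figure D1:**
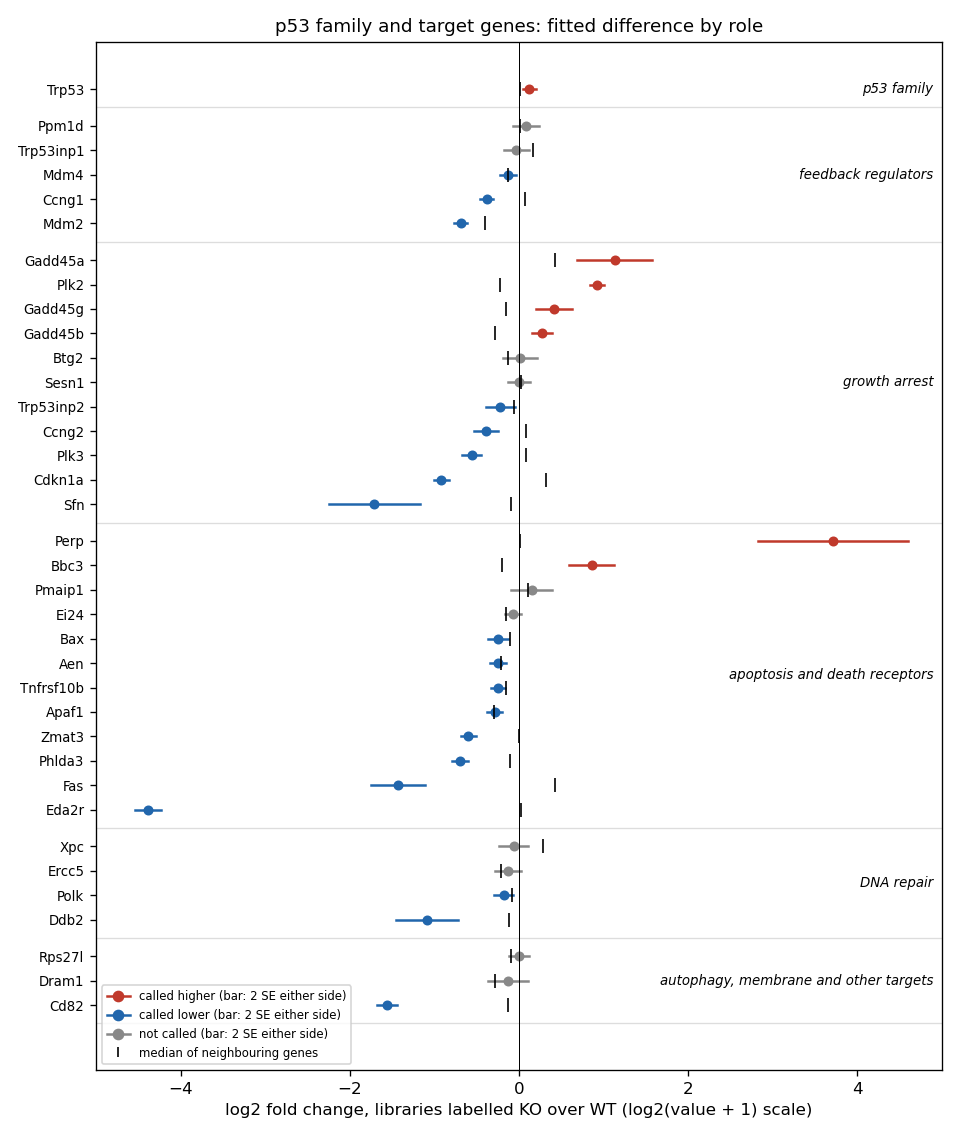
Fitted log2 fold change (libraries labelled KO over WT, horizontal axis) of the 36 members tested, grouped by role, with bars of 2 standard errors either side. Black ticks mark the median of the tested genes within 5 Mb, and Eda2r at -4.39 and Perp at 3.71 stand farthest from 0.

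Within the p53 family, Trp53 was the only member with more than a trace of messenger RNA. Trp53 (chromosome 11, 69580348 to 69591873, mm10) had 10857, 11292 and 10726 normalized read counts in the WT libraries, against 11521 and 12244 in the KO libraries. Both KO libraries lay above the WT libraries, by a small margin beside the spread within each group. The fit put it 0.12 ± 0.0391 (SE) higher on the log2 scale (limma, adjusted p = 0.0129). Leaving out a library ended this call for WT replicate 1 (adjusted p = 0.0599), WT replicate 3 (0.0722) and KO replicate 2, the last at 0.073 (0.136). So did taking the replicate number as a block (0.0902). At a mean of 159 RPKM in WT and 171 RPKM in KO, Trp53 was the most abundant member per length and stood above 97.7% and 97.8% of all genes tested. A processed pseudogene, Trp53-ps, is annotated on chromosome 17, and reads of the gene and its copy may be shared. Trp63, which drives the program of stratified epithelia, had 0, 1 and 1 reads in the WT libraries and 0 and 2 in the KO libraries. Trp73, a relative with roles in neurons and ciliated cells, had 0, 1 and 2 reads in WT and 0 in both KO libraries. Counts of this size allow no comparison.

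**Figure D2:**
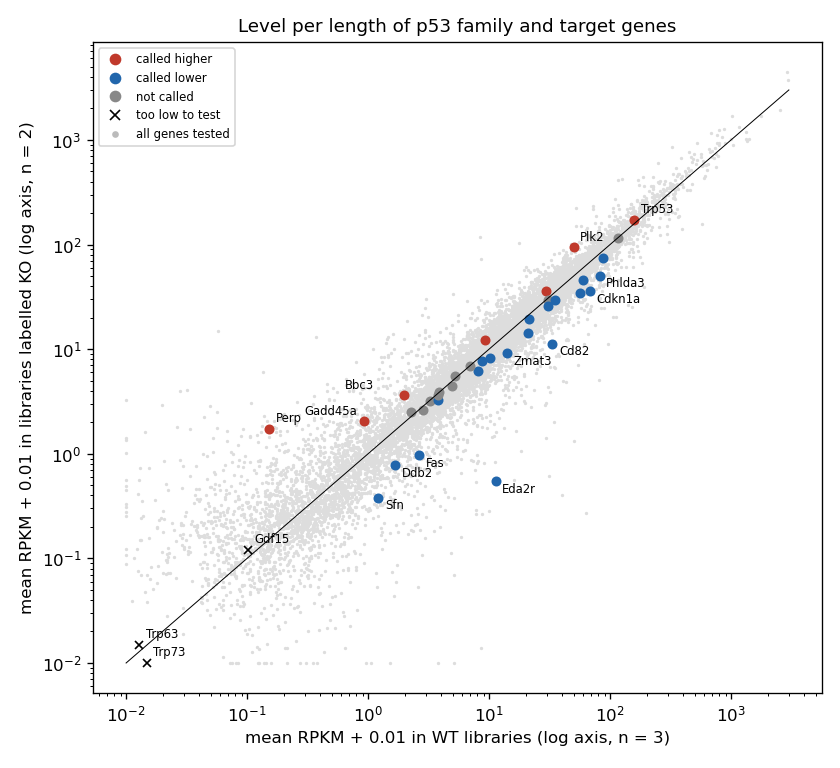
Mean RPKM + 0.01 of each member in the 3 WT libraries (horizontal, log axis) and the 2 libraries labelled KO (vertical, log axis), over all 13062 genes tested in grey. Trp53 is the highest member in both, Eda2r lies far below the diagonal, and Trp63, Trp73 and Gdf15 are near the floor.

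Of the 5 genes of p53 feedback among the members, 3 fell and 2 did not pass, where 32.6% of all genes tested fell. Mdm2 (chromosome 10, 117688875 to 117710758), for the ligase that marks p53 for destruction, had 6183, 6477 and 6095 normalized read counts in the WT libraries, against 3881 and 3870 in the KO libraries. The KO libraries lay well below every WT library and close to each other. Mdm2 was 1.61-fold higher in WT, with a log2 fold change of -0.69 ± 0.0402 (SE, limma, adjusted p = 2.19e-12). Its 41 tested neighbours within 5 Mb had a median of -0.40, and with that local shift removed Mdm2 kept a log2 fold change of -0.29 (adjusted p = 2.04e-06). Mdm4, the partner that blocks the activation domain of p53, was at 2712, 2816 and 2674 in WT and 2461 and 2521 in KO, for a log2 fold change of -0.13 (adjusted p = 0.013). Its groups did not overlap, but the median of its 79 neighbours was -0.13 as well, and the call was lost with the local shift removed (adjusted p = 0.911). Leaving out WT replicate 2 (0.0544) or KO replicate 1 (0.0625) ended it too, as did tests of the whole reads of 4 libraries with edgeR (0.061) and DESeq2 (0.142). Per length, the ratio of Mdm2 to Mdm4 was 2.63, 2.65 and 2.63 in the WT libraries and 1.82 and 1.77 in KO replicates 1 and 2. A pseudogene, Mdm4-ps, is annotated on the X chromosome, and reads of Mdm4 and this copy may be shared.

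Ccng1, the gene of cyclin G1, which directs a phosphatase to MDM2, fell with a log2 fold change of -0.38 (adjusted p = 1.5e-08), and its neighbours had a median of 0.066. Ppm1d, for the phosphatase WIP1 that turns off the damage response, was at 0.084 (adjusted p = 0.344). Trp53inp1, a p53 target that promotes p53 phosphorylation, was at -0.033 (adjusted p = 0.716), and reached -0.19 (adjusted p = 0.0368) with the local shift of its region removed.

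Growth arrest genes split in direction, with 4 rises and 5 falls among the 11 tested of 12. Of all genes tested, 32.6% moved each way. Cdkn1a (chromosome 17, 29090979 to 29100722), the gene of p21, had 5141, 5002 and 5142 normalized read counts in the WT libraries, against 2552 and 2823 in the KO libraries. All WT libraries lay far above both KO libraries. The level was 1.90-fold higher in WT (log2 fold change -0.92 ± 0.0453 SE, limma, adjusted p = 1.11e-13), in a region whose 196 tested neighbours had a median of 0.32 in the other direction. A stretch of 273 of the 3553 exonic bases of Cdkn1a is shared with an antisense transcript, and without a stated strand setting reads there cannot be told apart. Relative to Trp53, Cdkn1a RPKM was 0.437, 0.408 and 0.442 in WT and 0.204 and 0.213 in KO replicates 1 and 2.

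Because Cdkn1a is the classical p53 target, its upstream sequence is shown. The p53 consensus element of 10 bases (3 purines, C, 2 bases that are A or T, G, 3 pyrimidines) reads the same way on both strands, and a full site is a pair of such elements separated by at most 13 bases. In the 250 bases upstream of annotated start sites (RefSeq, GRCm38.p6), a full site was found for 18 of 27025 genes (0.0666%), and Cdkn1a was the 1 member of 31 with a window that had it. The window is chr17:29090729-29090978 on the plus strand, before the first of 2 annotated starts. Capitals mark the pair of elements, which starts at 29090906, spans 32 bases, and begins 73 bases before the first start and 2863 bases before the second, at 29093769.
Cdkn1a: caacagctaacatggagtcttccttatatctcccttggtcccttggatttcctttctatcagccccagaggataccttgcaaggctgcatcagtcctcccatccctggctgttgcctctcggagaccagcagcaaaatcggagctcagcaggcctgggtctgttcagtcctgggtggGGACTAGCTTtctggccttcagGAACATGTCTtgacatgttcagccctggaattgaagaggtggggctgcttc
The 10 bases that directly follow the second element match 9 of the 10 consensus letters. A match is a description of the sequence and no evidence of binding in these cells.

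A single p53 consensus element was more widespread. It occurred in the same 250 bases for 12 of the 31 members with a window (38.7%, over 44 windows) and for 2216 of 27025 genes (8.20%, over 32851 windows). Of the members that fell, 6 of 16 with a window had it. Among members that rose it was found in 2 of 6, and among those that did not pass in 4 of 7. Shown are stretches of 30 bases from 3 members that fell and 2 that rose, with the element in capitals. They lie at chr10:117710925-117710954 (Mdm2, minus strand), chr11:40755452-40755481 (Ccng1, minus), chr7:45467080-45467109 (Bax, minus), chr11:69580274-69580303 (Trp53, plus) and chr6:67037428-67037457 (Gadd45a, minus).
Mdm2: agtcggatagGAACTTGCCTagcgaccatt
Ccng1: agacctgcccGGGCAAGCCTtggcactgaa
Bax: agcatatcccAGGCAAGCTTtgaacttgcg
Trp53: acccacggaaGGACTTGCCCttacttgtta
Gadd45a: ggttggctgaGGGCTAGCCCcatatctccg

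Sfn (chromosome 4, 133600556 to 133602168), for 14-3-3 sigma, which holds mitotic kinases in the cytoplasm of epithelial cells, was at a low level throughout. It stood at 79.6, 71.2 and 64.8 normalized read counts in the WT libraries, against 28.6 and 15.6 in the KO libraries. The groups did not overlap, though the 2 KO libraries differed widely from each other (coefficient of variation 41.8%). Sfn was 3.25-fold higher in WT (log2 fold change -1.71 ± 0.27 SE, limma, adjusted p = 1.02e-05). Summed markers of epithelium lay between 297.9 and 307.7 normalized read counts in WT and between 169.6 and 192.4 in KO. Most of that sum was the desmoplakin gene Dsp, which went from a mean of 277.5 in WT to 130.6 in KO. Epcam went the other way, from 6.18 to 22.2. Of these 9 markers 1 rose, 1 fell, 1 did not pass, 6 were too low to test and the basal keratin gene Krt5 was at 0 in all libraries. The part of such cells in the Sfn result was not tested.

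The 3 GADD45 genes, small stress proteins that bind cell cycle kinases and MAP kinase regulators, all rose. Of all genes tested, 32.6% rose. Gadd45a (chromosome 6, 67035096 to 67037407), the family's p53 target, had 38.9, 39.6 and 46.3 normalized read counts in the WT libraries, against 103.5 and 81.2 in the KO libraries. Both KO libraries were above all WT libraries. It was 2.22-fold higher in KO (log2 fold change 1.13 ± 0.222 SE, limma, adjusted p = 0.00014). Its 23 neighbours had a median of 0.43, and with the local shift removed the value was 0.70 (adjusted p = 0.0135). The antisense gene E230016M11Rik shares 337 of its 1764 exonic bases and differed by 1.55 on the log2 scale in the same direction, so reads of the pair cannot be told apart. Gadd45b rose by 0.27 (adjusted p = 0.000296), against a neighbourhood median of -0.29, and by 0.56 with that shift removed. Gadd45g rose by 0.41 (adjusted p = 0.00217), a call lost without KO replicate 2 (adjusted p = 0.10) and with DESeq2 on whole reads (0.0565). Per length Gadd45b made up between 69.7% and 76.0% of the family in each library, and Gadd45a between 2.05% and 4.52%.

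The polo-like kinase genes moved apart. Plk2 (chromosome 13, 110395044 to 110400844), for a kinase of centriole duplication and stress response, had 4966, 5218 and 5324 normalized read counts in the WT libraries, against 10017 and 9508 in the KO libraries. Its 2 KO libraries lay far above the WT libraries. Plk2 was 1.89-fold higher in KO (log2 fold change 0.92 ± 0.0411 SE, limma, adjusted p = 2.33e-14). Plk3, a stress-activated relative, fell with a log2 fold change of -0.56 (adjusted p = 2.05e-08). Per library, the ratio of Plk2 to Plk3 in RPKM was 2.44, 2.36 and 2.32 in the WT libraries and 6.71 and 6.47 in KO replicates 1 and 2. Plk2 moved from the eighth to the third place among members in RPKM.

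Of the other growth arrest genes, Ccng2, for cyclin G2, fell with a log2 fold change of -0.39 (adjusted p = 8.33e-05). Trp53inp2, a regulator of autophagy named for its likeness to Trp53inp1, was called at -0.22 (adjusted p = 0.029). That call was the least stable of all members and was lost in 8 of 17 alternatives, among them without WT replicate 1 (adjusted p = 0.0685), WT replicate 3 (0.138) or KO replicate 1 (0.181) and in the authors' deposited table (0.0911). Sesn1, a sestrin that restrains mTORC1, was level to within its error at 0.00051 ± 0.0648 (SE), and the antiproliferative gene Btg2 was at 0.015 ± 0.101 (SE). The stress cytokine gene Gdf15 was near its detection limit, with 8, 2 and 2 reads in the WT libraries, against 6 and 2 in the KO libraries.

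Among 12 genes of apoptosis and death receptors, 8 fell and 2 rose, where 32.6% of all genes tested fell and 32.6% rose. The largest difference of any member was that of Eda2r (chromosome X, 97333837 to 97377234), a receptor of the TNF family for ectodysplasin A2. It had 2476, 2549 and 2250 normalized read counts in the WT libraries, against 121.1 and 109 in the KO libraries. No WT library came near the KO libraries. Eda2r was 21.1-fold higher in WT (log2 fold change -4.39 ± 0.0767 SE, limma, adjusted p = 2.4e-21), while its 47 neighbours on the X chromosome had a median of 0.028. It fell from the 17th to the 35th place among members in RPKM.

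Fas and Tnfrsf10b, the receptors for FAS ligand and TRAIL, fell too, by unequal amounts. Fas (chromosome 19, 34290647 to 34327775) was at 170.6, 157.3 and 195.2 normalized read counts in the WT libraries, against 61.7 and 65.6 in the KO libraries. The groups were clearly apart, at 2.74-fold higher in WT (log2 fold change -1.43 ± 0.161 SE, limma, adjusted p = 9.15e-08). Its 52 neighbours had a median of 0.43 in the other direction. Tnfrsf10b was at -0.25 (adjusted p = 2.55e-05), a call lost with the local shift removed (-0.089, adjusted p = 0.0691). Tnfrsf10b nevertheless made up between 68.1% and 70.0% of the RPKM of the 3 receptors in WT and 94.5% and 94.6% in KO. Eda2r took between 23.4% and 26.6% of that sum in WT and 2.07% and 1.83% in KO replicates 1 and 2.

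Phlda3 and Zmat3, which dampen AKT signalling and bind RNA, respectively, were well expressed and fell together. Phlda3 (chromosome 1, 135766085 to 135769134) had 4539, 4199 and 4592 normalized read counts in the WT libraries, against 2658 and 2813 in the KO libraries. Zmat3 (chromosome 3, 32334792 to 32365665) had 3940, 4110 and 3962 in WT and 2547 and 2731 in KO. In both genes all WT libraries were above all KO libraries. Phlda3 was 1.62-fold and Zmat3 1.52-fold higher in WT, with log2 fold changes of -0.70 and -0.60 (limma, adjusted p = 1.97e-11 and 1.13e-10) and neighbourhood medians of -0.11 and -0.0058.

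**Figure D3:**
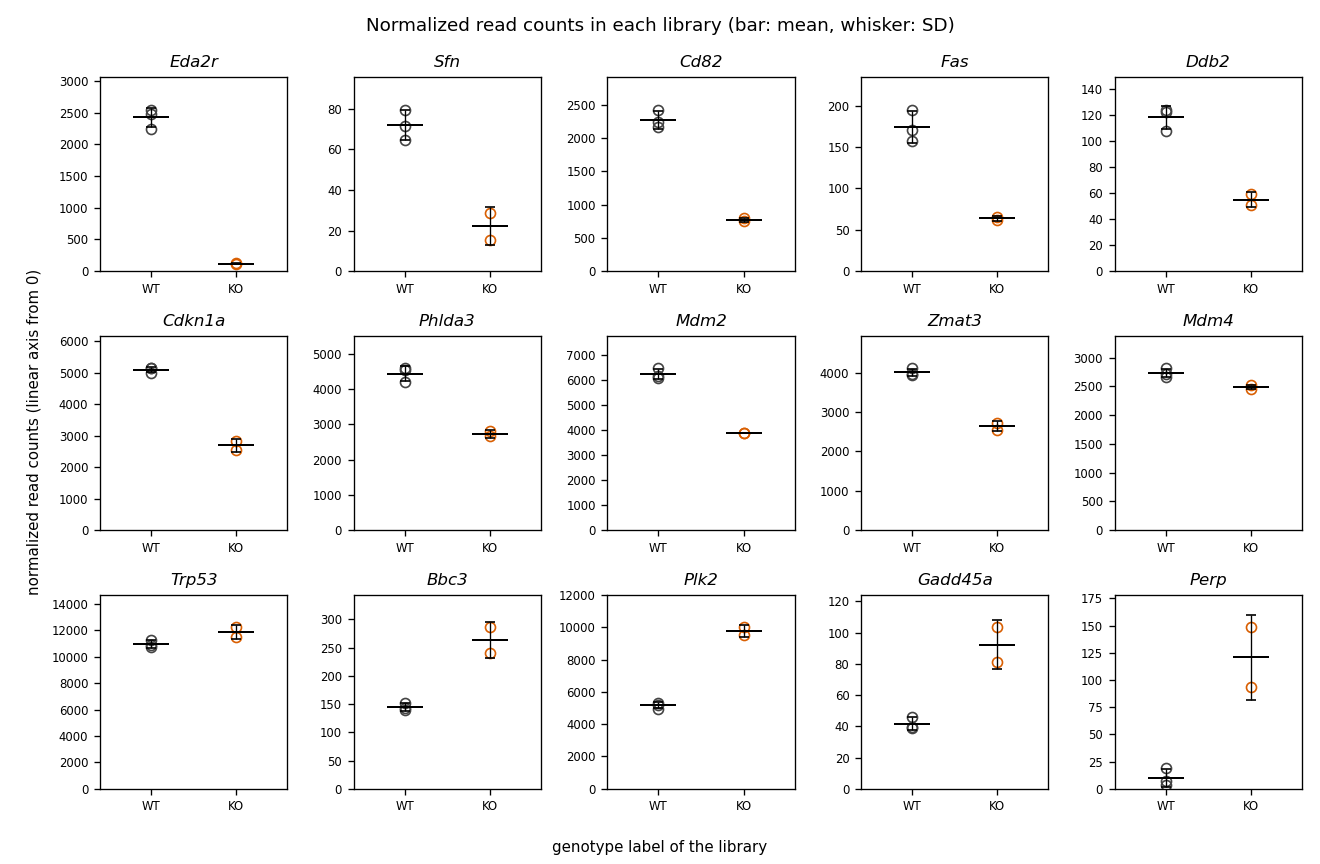
Normalized read counts (vertical, linear axes from 0) of 15 members in each of the 3 WT and 2 KO libraries, with the mean and SD. The WT and KO points of Eda2r, Cd82, Cdkn1a and Mdm2 are far apart, while those of Trp53 and Mdm4 lie close together.

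The 2 apoptosis genes that rose were Bbc3 and Perp. Bbc3 (chromosome 7, 16308398 to 16318334), for the BH3-only protein PUMA, had 142.3, 139.5 and 152.6 normalized read counts in the WT libraries, against 286.3 and 241.3 in the KO libraries. Both KO libraries exceeded all WT libraries, for a 1.82-fold higher level in KO (log2 fold change 0.86 ± 0.132 SE, limma, adjusted p = 7.61e-06). Perp (chromosome 10, 18845071 to 18857073), a membrane protein of desmosomes and a p53 and p63 target, was nearly silent in WT, at 3.54, 18.8 and 7.40 normalized read counts (4, 19 and 8 reads). In KO replicates 1 and 2 it was at 148.7 and 93.4. The ranges were far apart although the WT libraries varied widely, with a coefficient of variation of 80.1%. The means gave a 12.2-fold higher level in KO and the fit a log2 fold change of 3.71 ± 0.444 (SE, limma, adjusted p = 2.3e-07), where the authors' deposited table gives 1.59 (adjusted p = 2.9e-05). For the low genes Sfn and Gadd45a the deposited values also lay nearer 0 than the fit (-1.33 against -1.71, 0.98 against 1.13). Mdm2 was at -0.69 in both. The size varied in both directions. Lower values included 2.98 from RPKM, 3.18 with a pseudocount of 5 and 3.2 without WT replicate 1. On whole reads without WT replicate 2, edgeR and DESeq2 gave 4.45 and 4.48. Leaving out that library moved the ratio of means to 22.1 and the limma value to 4.27. Of the 9 epithelial markers, 1 rose and 1 fell. Epcam was 3.59-fold higher in KO, at 6.18 ± 1.23 (SD, n = 3) in WT against 22.2 ± 4.85 (SD, n = 2). Dsp was 2.12-fold higher in WT. The summed epithelial markers, mostly Dsp, were lower in KO. The part of epithelial cells in the Perp result was not tested.

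The other executioners differed little. Bax, for the pore-forming protein of the mitochondrial outer membrane, fell with a log2 fold change of -0.25 (adjusted p = 0.000675) and stayed called at -0.15 (0.0346) with the local shift removed. It shares 192 of its 1576 exonic bases with Gm45808 on the same strand. Apaf1, the scaffold of the apoptosome, was at -0.29 (adjusted p = 1.51e-05), and the 53 genes around it had a median of -0.30, so that 0.0068 (adjusted p = 0.908) was left. Aen, a nuclease that p53 induces, was similarly at -0.25 (adjusted p = 5.95e-05) beside a neighbourhood median of -0.21, with -0.04 (0.464) left. Pmaip1, for the BH3-only protein NOXA, was at 0.15 ± 0.121 (SE, adjusted p = 0.274) and Ei24, of the endoplasmic reticulum, at -0.07 ± 0.0471 (SE, adjusted p = 0.203).

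Of the 4 repair genes, 2 fell, where 32.6% of all genes tested fell. Ddb2 (chromosome 2, 91211545 to 91237132), which recognizes ultraviolet lesions, had 122, 107.8 and 124 normalized read counts in the WT libraries, against 50.7 and 58.9 in the KO libraries. WT libraries were about even with each other and all above the KO libraries. Ddb2 was 2.15-fold higher in WT (log2 fold change -1.09 ± 0.182 SE, limma, adjusted p = 1.98e-05). It shares 652 of its 2736 exonic bases with Acp2 on the opposite strand, a more abundant gene at -0.23, so its reads cannot be fully told apart. Polk, a polymerase that copies past damage, was called at -0.18 (adjusted p = 0.00795). The Polk call was lost without KO replicate 1 (adjusted p = 0.0699), with DESeq2 on whole reads (0.107) and with the local shift removed (0.121). Xpc, the damage sensor of global repair, was at -0.065 (adjusted p = 0.533), and at -0.35 (0.00236) with the local shift removed, since its 61 neighbours had a median of 0.28. The nuclease gene Ercc5 was at -0.13 ± 0.0764 (SE, adjusted p = 0.156).

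Of the remaining targets, Cd82 (chromosome 2, 93419102 to 93462950), for a tetraspanin that restrains cell movement, was the only one to pass. It had 2240, 2163 and 2431 normalized read counts in the WT libraries, against 796.2 and 750.6 in the KO libraries. The gap between the groups was several times the spread within them, at 2.95-fold higher in WT (log2 fold change -1.56 ± 0.0585 SE, limma, adjusted p = 1.04e-15). Dram1, a lysosomal protein that couples p53 to autophagy, was at -0.13 ± 0.12 (SE, adjusted p = 0.339). Rps27l, a ribosomal protein variant and the second most abundant member at 116 RPKM in both groups, was at -0.0024 ± 0.0591 (SE, adjusted p = 0.975).

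Genes of the p53 pathway outside the members moved in both directions, as did all genes tested, of which 32.6% rose and 32.6% fell. Of 20 upstream regulators listed, 19 were found and tested, with 9 rises, 8 falls and a median of 0.0027 on the log2 scale. Beside 65.3% of all genes tested, 17 of these 19 regulators were called. Those with the smallest adjusted p were Npm1, for nucleophosmin, which was 1.59-fold higher in KO (limma, adjusted p = 7.01e-11), the p53 kinase gene Hipk2, 1.75-fold higher (5.26e-10), and Rpl5, a ribosomal protein that binds MDM2, 1.33-fold higher (1.67e-09). Chosen after their values were seen, the damage kinase genes Atm and Prkdc fell, both at -0.38, as did Atr at -0.31 and Chek2 at -0.25, while Chek1 rose by 0.31. Cdkn2a, whose products include the MDM2 inhibitor ARF, rose by 0.26, as did Sirt1, for a p53 deacetylase, by 0.15 and Rfwd2, for the p53 ligase COP1, by 0.11.

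Of 30 further p53 targets, 27 were tested, 8 rose and 12 fell, with a median of -0.0587. Over all genes tested 32.6% rose and 32.6% fell, so that the rises were near that share and the falls above it. Igfbp3, which binds insulin-like growth factors, went from 4497 ± 193 (SD, n = 3) normalized read counts in WT to 119 ± 3.17 (SD, n = 2) in KO, 37.8-fold higher in WT (limma, adjusted p = 3.88e-24). Thbs1, for the matrix protein thrombospondin 1, was 2.14-fold higher in KO (5.71e-16), and the epoxide hydrolase gene Ephx1 was 2.71-fold higher in WT (2.36e-14).

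Cell cycle genes that p21 and the DREAM complex are known to lower were mostly higher in the libraries labelled KO, in which Cdkn1a was lower. Of 24 genes, all tested, 15 rose, 3 fell and 6 did not pass, with a median of 0.151. Over all genes tested 32.6% rose and 32.6% fell. Mki67, a proliferation marker, went from 17814 ± 281 (SD, n = 3) to 24481 ± 1530 (SD, n = 2), the cyclin gene Ccna2 was 1.34-fold higher and the transcription factor gene Mybl2 1.41-fold higher (limma, adjusted p = 1.91e-09, 2.32e-09 and 2.69e-09). Mki67 lies in a region with a median of 0.43, near its own value of 0.46, whereas the neighbours of Ccna2 and Mybl2 were at -0.011 and -0.10. The 3 that fell, named after their values were seen, were Top2a, E2f1 and Cenpf, at -0.38, -0.33 and -0.12. The link between Cdkn1a and these genes was not tested, nor was whether p21 and DREAM lower them in cells with the T antigen. Chek1 stands on this list and among the upstream regulators.

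**Figure D4:**
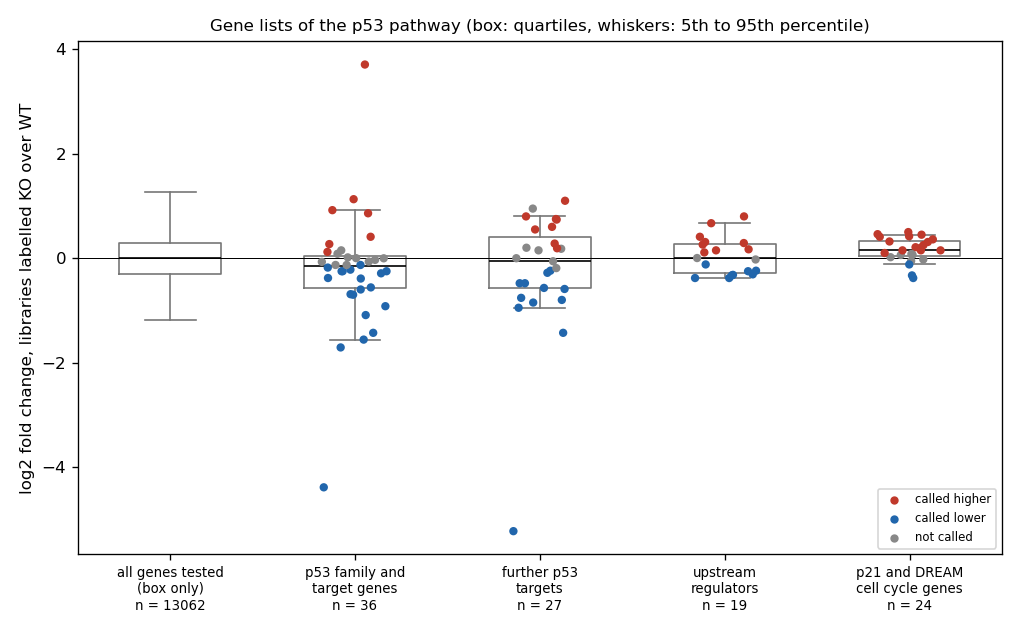
Log2 fold change (libraries labelled KO over WT) of the genes tested in each list, with quartile boxes and whiskers from the 5th to the 95th percentile. The members have a median of -0.158, the p21 and DREAM genes 0.151, and all 13062 genes tested -0.00228.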

How the data were processed

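Messenger RNA of 5 fibroblast libraries was enriched on poly-T beads and read on an Illumina instrument, as the labels' protocols state. STAR, DESeq2 and the build mm10 are credited to the submitters' processing notes. Not given in the sources used here: counting program, annotation, strand setting. The authors deposited 1 table with a signal per library, which from the values is read counts divided by a size factor (100% whole multiples of a step, tolerance 0.1 reads), RPKM values, a log2 fold change, a Wald score and p-values.

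Here limma 3.58.1 (R 4.3.3, trended prior) was run on log2(value + 1) of the 13062 genes that reached 10 in 2 or more libraries, with genotype as the factor. This scale understates changes of low genes. Calls are two-sided. Members and lists were chosen with earlier results of these data known. Of the lists' symbols, 4 were matched by a synonym and 1 was not found. Counts in every library are given for the p53 family, Mdm2, Mdm4, Cdkn1a and members called at 1.5-fold or more, and up to 3 called genes are named per further list. Marker genes named were chosen after their values were seen.

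Positions and upstream sequences are RefSeq's (GRCm38.p6, the assembly of mm10), and exon overlaps are from GENCODE M21. A local shift is the median log2 fold change of at least 10 other tested genes within 5 Mb. Alternatives were other scalings (TMM, median ratio), filters and pseudocounts, RPKM, each library left out, a replicate block, edgeR 4.0.16 and DESeq2 1.42.0 on recovered reads, the deposited comparison and removal of the local shift. WT replicate 2 stayed out of count tests, as its step of 0.989 is too near 1. On simulated counts of this comparison (12895 genes, 200 changed) the test recovered 60%, 88%, 96% and 94% of genes changed 1.2-fold, 1.5-fold, 2-fold and 4-fold, and 11 of 180 calls were false. All 1.2-fold and 1.5-fold changes were rises in KO, and all 2-fold and 4-fold changes were falls. Falls of the smaller sizes and rises of the larger ones were thus not simulated. The simulation gave every gene the same assumed dispersion. It changed far fewer genes than the 8523 called in the data, so its rates need not hold for them.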

Additional observations from a re-analysis of the deposited data

How the results depend on the processing

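Over 17 alternatives, 18 of the 26 called members kept their call and direction. Without single libraries, the members called lower ranged from 16 to 19 and those called higher from 5 to 7. Of all genes tested, between 3770 and 4024 were called higher and between 3829 and 3970 lower. With the local shift removed 15 members were lower and 7 higher, and with the replicate block 18 and 6. Removal of the local shift ended the calls of Mdm4, Trp53inp2, Apaf1, Aen, Tnfrsf10b and Polk. The 15 lower members include Trp53inp1 and Xpc, which did not pass in the main fit. No label says that the replicate numbers pair the libraries. Deviations from the group mean in same-numbered libraries correlated at -0.00975 and -0.005. With 2 KO libraries, their deviations mirror each other, so these values cannot show whether the numbers mark a shared batch. The block called 3958 genes higher and 3947 lower. On recovered whole reads (100% of values whole) of 4 libraries, edgeR called 4147 genes higher and 3956 lower, and DESeq2 3537 and 3428.

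Signs turned for 1 called member, Apaf1, with the local shift removed (0.0068). The other sign changes were of members that did not pass, at values near 0. Local shift removal gave -0.021 for Sesn1, 0.086 for Ei24, 0.084 for Ercc5, 0.14 for Dram1 and 0.089 for Rps27l. Leaving out single libraries gave Trp53inp1 from -0.069 to 0.00088, Btg2 from -0.073 to 0.099 (-0.069 without KO replicate 1), Sesn1 from -0.029 to 0.03 (-0.01 and -0.0026 without WT replicates 1 and 2), Xpc from -0.14 to 0.015 and Rps27l from -0.12 to 0.11 (0.0013 and 0.022 without WT replicates 1 and 3). The replicate block gave Trp53inp1 0.00088 and Rps27l 0.022. On whole reads edgeR gave Btg2 -0.068, and DESeq2 gave Btg2 -0.073 and Sesn1 -0.0029. RPKM gave Sesn1 -0.0056, and the authors' deposited table Rps27l 0.0014. The cause of these changes was not tested. No scaling moved the median of all genes by over 0.1. Depth limits Trp63, Trp73, Gdf15, Perp and Sfn.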

Other observations

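Several members went against the genes around them. The 196 tested neighbours of Cdkn1a on chromosome 17 had a median log2 fold change of 0.32, and with it removed the fall of Cdkn1a was -1.24 (limma, adjusted p = 1.27e-15). For Fas, whose neighbours were at 0.43, the value became -1.87 (adjusted p = 4.32e-09). Plk2 and Bbc3 rose in regions with medians of -0.23 and -0.20, and stood at 1.15 and 1.06 with these removed. Of the 36 members tested, 21 lay below their neighbours' median and 15 above it. Mdm2, Apaf1, Aen, Mdm4, Tnfrsf10b, Polk, Trp53inp2, Bax and Gadd45a were among the members that shared part or all of their difference with their regions.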
